A study of Oryza sativa and Arabidopsis thaliana with 24 samples.

Results

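The fragments described here are 5' tRNA fragments, called tRF-5: short RNAs that begin at the first base of a mature tRNA and end in its D arm or anticodon arm. From every fragment that the deposited lists class as tRF-5, those were kept whose sequence is an exact part of at least 1 listed tRNA of the same species. This left 785 of 5826 listed fragments in Arabidopsis thaliana and 528 of 2794 in rice (Oryza sativa), 1313 of 8620 in all. The other tRF-5, 1098 in Arabidopsis and 266 in rice, fit no listed tRNA exactly and are used only for comparison. All 1313 fragments began at base 1 of a tRNA, although an exact match anywhere in it was enough, as the class name states.

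The series is 24 tRNA-sequencing libraries, 2 per group. In Arabidopsis, grown in soil at 23 °C with 16 h of light, the groups were flower, silique, rosette leaf, leaf from the stem (stem leaf here) and stem. In rice they were panicle, and root and shoot of seedlings kept for 8 h at 4 °C in continuous light (cold), for 8 h in 300 mM NaCl (salt) or untreated (control). Rice was germinated at 30 °C for 2 d and grown in Yoshida's nutrient solution at 28 °C with 14 h of light. No mutation or transgene is named for any group. The labels do not say whether the libraries of a pair came from separate plants, so every p-value below measures only the spread between these libraries.

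A tRNA folds into a cloverleaf. Read from its 5' end it passes through the acceptor stem, the D arm with its stem and loop, and the anticodon arm, whose loop carries the anticodon at bases 34 to 36. Cells cut mature tRNAs within these loops, and in Arabidopsis ribonucleases of the RNS family are known to make such cuts. Plants carry separate tRNA genes in the nucleus, the plastid and the mitochondrion, and plastid-encoded tRNAs serve translation inside the plastid.

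The parent tRNAs below belong to the fragments on which the results turn. Each is shown whole with the fragment in capitals, so that the place of the cut can be read directly. The first set is from Arabidopsis.
Ser-AGA, 23 nt fragment: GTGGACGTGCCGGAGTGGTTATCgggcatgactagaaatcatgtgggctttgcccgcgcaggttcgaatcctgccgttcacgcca
Glu-TTC, 32 nt fragment: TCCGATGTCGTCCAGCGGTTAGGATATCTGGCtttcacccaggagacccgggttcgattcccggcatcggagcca
Gly-TCC, 18 nt fragment: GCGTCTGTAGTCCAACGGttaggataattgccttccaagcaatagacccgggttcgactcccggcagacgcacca
Ala-AGC, 20 nt fragment: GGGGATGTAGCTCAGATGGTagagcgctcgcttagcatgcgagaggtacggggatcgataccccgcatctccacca
Val-AAC, 24 nt fragment: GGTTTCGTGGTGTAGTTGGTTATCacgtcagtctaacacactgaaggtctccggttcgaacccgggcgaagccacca
Glu-CTC, 24 nt fragment: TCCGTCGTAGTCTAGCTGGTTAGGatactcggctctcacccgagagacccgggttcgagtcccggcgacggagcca
plastid Val-TAC, 20 nt fragment: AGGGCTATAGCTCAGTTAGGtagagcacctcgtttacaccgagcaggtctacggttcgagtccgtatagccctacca
plastid Leu-CAA, 33 nt fragment: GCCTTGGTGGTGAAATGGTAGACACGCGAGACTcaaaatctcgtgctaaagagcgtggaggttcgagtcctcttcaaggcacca
The second set is from rice, with a second fragment of the same tRNA for those whose fragments are compared below.
Gly-TCC, 18 nt fragment: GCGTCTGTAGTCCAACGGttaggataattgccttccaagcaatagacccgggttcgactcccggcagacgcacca
Glu-CTC, 30 nt fragment: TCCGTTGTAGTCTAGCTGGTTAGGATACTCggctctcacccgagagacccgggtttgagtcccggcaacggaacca
Arg-CCT, 18 nt fragment: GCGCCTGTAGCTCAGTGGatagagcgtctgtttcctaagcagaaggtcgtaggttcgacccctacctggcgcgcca
Arg-CCT, 20 nt fragment: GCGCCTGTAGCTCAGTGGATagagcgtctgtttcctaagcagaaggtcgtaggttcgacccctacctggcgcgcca
Arg-ACG, 18 nt fragment: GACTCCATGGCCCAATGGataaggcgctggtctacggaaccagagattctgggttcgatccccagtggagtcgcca
His-GTG, 33 nt fragment: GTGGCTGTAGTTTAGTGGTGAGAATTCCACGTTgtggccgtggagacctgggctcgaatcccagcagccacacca
Ala-CGC, 19 nt fragment: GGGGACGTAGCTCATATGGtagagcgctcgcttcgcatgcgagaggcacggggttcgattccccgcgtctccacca
Ala-CGC, 21 nt fragment: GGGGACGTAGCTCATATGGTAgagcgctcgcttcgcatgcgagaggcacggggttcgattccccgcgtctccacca
Asn-GTT, 19 nt fragment: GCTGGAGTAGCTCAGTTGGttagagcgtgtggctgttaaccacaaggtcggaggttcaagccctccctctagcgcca
Asn-GTT, 20 nt fragment: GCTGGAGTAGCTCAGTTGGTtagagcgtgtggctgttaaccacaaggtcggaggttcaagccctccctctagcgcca
plastid Asp-GTC, 21 nt fragment: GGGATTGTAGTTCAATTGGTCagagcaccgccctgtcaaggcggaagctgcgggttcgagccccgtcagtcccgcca
plastid Asp-GTC, 33 nt fragment: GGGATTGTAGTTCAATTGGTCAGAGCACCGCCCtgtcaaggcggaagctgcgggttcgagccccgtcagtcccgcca
plastid Gly-GCC, 18 nt fragment: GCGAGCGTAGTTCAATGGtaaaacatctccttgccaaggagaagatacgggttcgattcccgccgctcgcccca
plastid Gly-GCC, 24 nt fragment: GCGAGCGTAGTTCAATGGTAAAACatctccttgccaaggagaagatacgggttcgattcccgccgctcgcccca
plastid Val-GAC, 18 nt fragment: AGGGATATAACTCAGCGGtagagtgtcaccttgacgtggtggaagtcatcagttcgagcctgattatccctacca
plastid Val-GAC, 27 nt fragment: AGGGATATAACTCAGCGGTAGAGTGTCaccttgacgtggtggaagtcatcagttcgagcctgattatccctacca

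The cca at each 3' end is added after transcription and lies outside the gene. The Arabidopsis loci are given in TAIR10 coordinates counted from 1, and each has the same ends as a tRNA gene of the RefSeq annotation. Each fragment is thus the start of the annotated tRNA. The Ser-AGA parent is chr1:21270296-21270377 on the plus strand (AT1G56760), 1 of 20 loci of that sequence, and its 23 nt fragment fits 6 listed tRNAs. The Glu-TTC parent is chr1:2939417-2939488, plus (AT1G09110), the Gly-TCC parent chr1:2588525-2588596, plus (AT1G08240), and the Ala-AGC parent chr1:2025356-2025428, plus (AT1G06610). The Val-AAC parent is chr1:10963573-10963646, minus (AT1G30830), and the Glu-CTC parent chr3:18997643-18997715, minus (AT3G51135). In the plastid genome, Leu-CAA lies at 144293 to 144373, plus (ArthCt118), and Val-TAC at 51199 to 51871, minus (ArthCt103), a gene with an intron and so longer than its tRNA. The build of the rice coordinates is not given in the sources used here. As listed, the rice Gly-TCC parent is chr4:19247300-19247371, plus, 1 Ala-CGC locus chr1:14454630-14454702, plus, and 1 plastid Asp-GTC locus lies at 16231 to 16304, plus. The printed Gly-TCC tRNA is the same in both species, 1 of 29 tRNA sequences that both lists hold.

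Mismatch-free tRF-5 made up 55.3% of all listed fragment abundance in Arabidopsis and 41.1% in rice. The tRF-5 with a mismatch made up 2.55% and 4.82%. In reads, the exact fragments numbered 90270 to 684840 in an Arabidopsis library and 32476 to 184468 in a rice library. Silique had the fewest reads in Arabidopsis, with 471 and 544 of the 785 fragments detected, against at least 588 in every other library. Salt-treated shoot had the fewest reads in rice, with 471 and 496 of 528 fragments detected, while control root had the fewest fragments, 440 and 472. In all 12 pairs replicate 2 held 1.58 to 1.64 times the reads of replicate 1, and the libraries of a pair differed by more than sampling noise. Levels are in RPM, reads scaled to library size, and are compared only within a species.

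The parents were spread unevenly over the genomes. In Arabidopsis 481 fragments came from nuclear, 300 from plastid and 4 from mitochondrial tRNAs, and 145 of 183 nuclear, 25 of 30 plastid and 2 of 19 mitochondrial tRNAs gave at least 1 fragment. In rice 355 were nuclear, 148 plastid and 25 mitochondrial, from 160 of 259, 19 of 25 and 10 of 15 tRNAs. All 25 rice plastid tRNAs also have a nuclear locus of identical sequence in the list, so all 148 plastid fragments of rice fit nuclear loci too. A tRNA with a plastid locus is called plastid here, as is a fragment that fits such a tRNA, and reads of the copies cannot be told apart. With each tRNA given 1 origin in this way, 128 rice fragments fit tRNAs of different origins. Many fragments fit several tRNAs: 558 of 785 fitted a single listed tRNA in Arabidopsis and 193 of 528 in rice.

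The fragments ran from 17 to 39 nt in Arabidopsis (median 24) and from 17 to 37 nt in rice (median 25), but their reads gathered at a few lengths. In Arabidopsis 32 nt and 33 nt fragments held 15.7% and 14.3% of member reads on the mean of the groups, 23 nt held 12.7%, 20 nt 10.7% and 18 nt 10.04%, while 22 nt held 0.54%. In rice 18 nt led with 16.5%, followed by 19 nt with 11.2%, 33 nt with 10.8% and 34 nt with 8.09%, and 22 nt again held little, 0.337%. The exact fragments listed as 5'-halves ran from 34 to 40 nt in both species, and 3 rice sequences stand in the lists both as tRF-5 and as 5'-half, with separate values. Their tRF-5 values are used here. Exact 5'-halves made up 30.8% of listed fragment abundance in Arabidopsis and 20.2% in rice, and the length and cut shares given here do not count them.

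**Figure D1:**
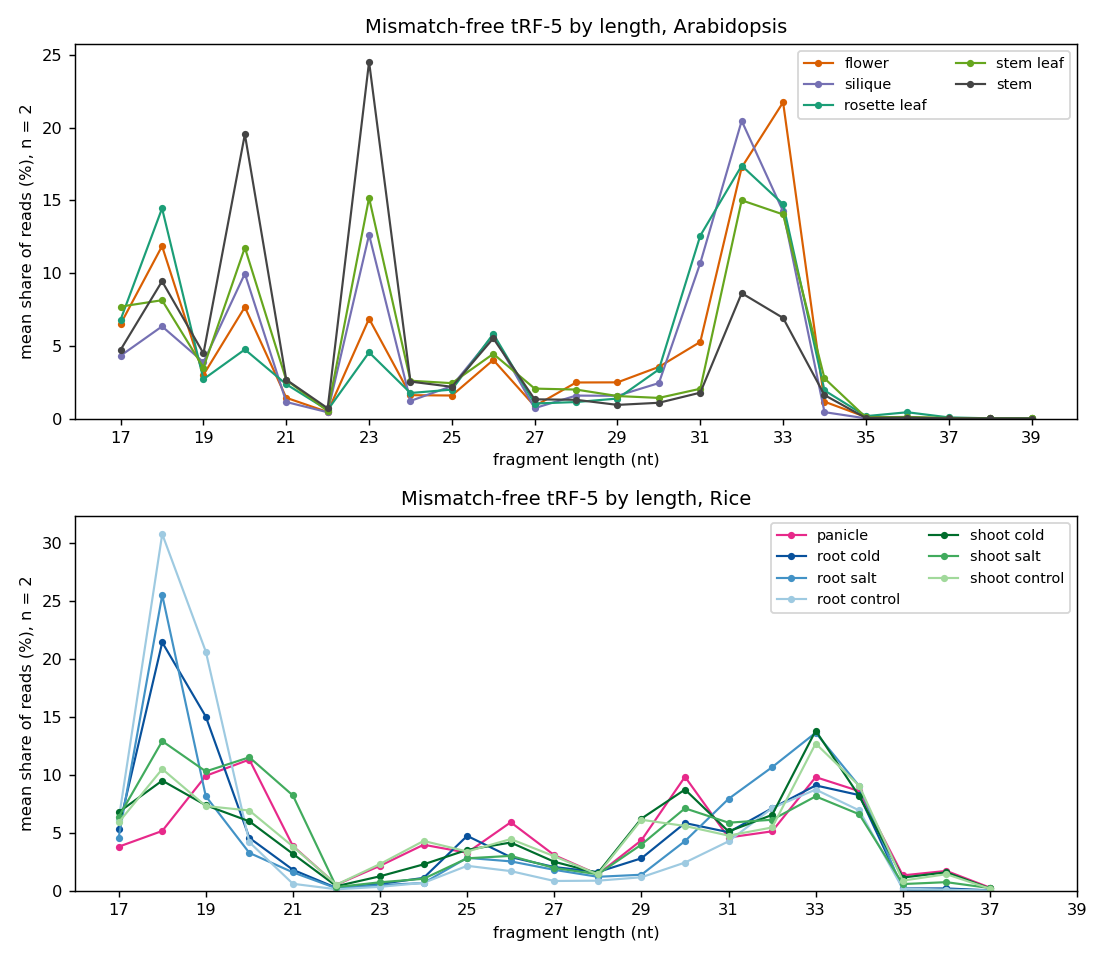
Share of mismatch-free tRF-5 reads (vertical axis, percent, mean of 2 libraries) at each fragment length (horizontal axis, nt) in the 5 Arabidopsis tissues and the 7 rice groups. Arabidopsis profiles peak at 18, 20, 23 and 32 to 33 nt, with the 23 nt peak highest in stem, and rice root profiles peak at 18 nt.

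Lengths follow from where the tRNA is cut. With bases numbered so that the anticodon starts at 34, the last base of a fragment fell in the D loop (to base 21), in the 3' side of the D stem (22 to 26), in the 5' side of the anticodon stem (27 to 31) or in the anticodon loop (from 32). In Arabidopsis 292, 196, 160 and 137 fragments ended in these regions. In rice the numbers were 183, 103, 114 and 127, with 1 fragment left unplaced. The D loop of most tRNAs holds a conserved GG pair, and many cuts fell at it or just behind it. Fragments whose last base was the second G of that pair held 12.9% of Arabidopsis member reads and 20.5% of rice member reads, and those 1 base longer held 9.67% and 12.5%. The 18 nt Gly-TCC fragment printed above ends on that pair in both species, as do the 18 nt Arg-CCT and Arg-ACG fragments of rice. Of the distinct fragments, 73.9% in Arabidopsis and 77.8% in rice began with G. Of member reads, those beginning with G made up 55.9% and 75.4%, and those beginning with T 33.9% and 23.9%.

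Reads were less concentrated in rice than in Arabidopsis. The most abundant held 11.7% of member reads in Arabidopsis and 4.76% in rice, the top 5 held 45.6% and 18.1%, and the top 20 held 68.0% and 48.8%. In Arabidopsis 260 fragments averaged under 10 RPM and 62 at least 1000 RPM. In all 10 Arabidopsis libraries 327 fragments were detected, and in all 14 rice libraries 323. The species shared 168 sequences, which were 21.4% of the Arabidopsis and 31.8% of the rice fragments and held 27.6% and 63.8% of the member reads. Of these, 130 were nuclear, 35 plastid and 3 mitochondrial. The 18 nt Gly-TCC fragment ranked 4 in Arabidopsis and 2 in rice, whereas the 30 nt Glu-CTC fragment, rank 1 in rice, ranked 110 in Arabidopsis.

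Parents are named by amino acid and anticodon, in DNA letters. In Arabidopsis Glu-TTC fragments held 32.2% of member reads on the mean of the groups, Gly-TCC 19.2%, Ser-AGA 12.4% and Ala-AGC 7.50%, and the leading plastid family, Val-TAC, 4.27%. For Ala-AGC, Ser-AGA and Glu-TTC these shares lay well above those in the deposited tRNA table, where their tRNAs held 0.01%, 0.49% and 8.26%. In rice the shares were more even, with Gly-TCC at 14.5%, Glu-TTC at 11.7%, Glu-CTC at 11.1%, plastid Asp-GTC at 10.7%, Arg-CCT at 7.33% and Arg-ACG at 6.47%. Families differed in how far their reads gathered at 1 length. The 23 nt fragments held 89.04% of Ser-AGA reads in Arabidopsis, and the 18 nt fragments 69.3% of Arg-ACG reads in rice. In the larger Arabidopsis families the leading length held less, 44.3% of Glu-TTC reads at 32 nt and 37.6% of Gly-TCC reads at 18 nt. In rice plastid Asp-GTC the leading length, 17 nt, held 25.5% on the mean of the groups.

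**Figure D2:**
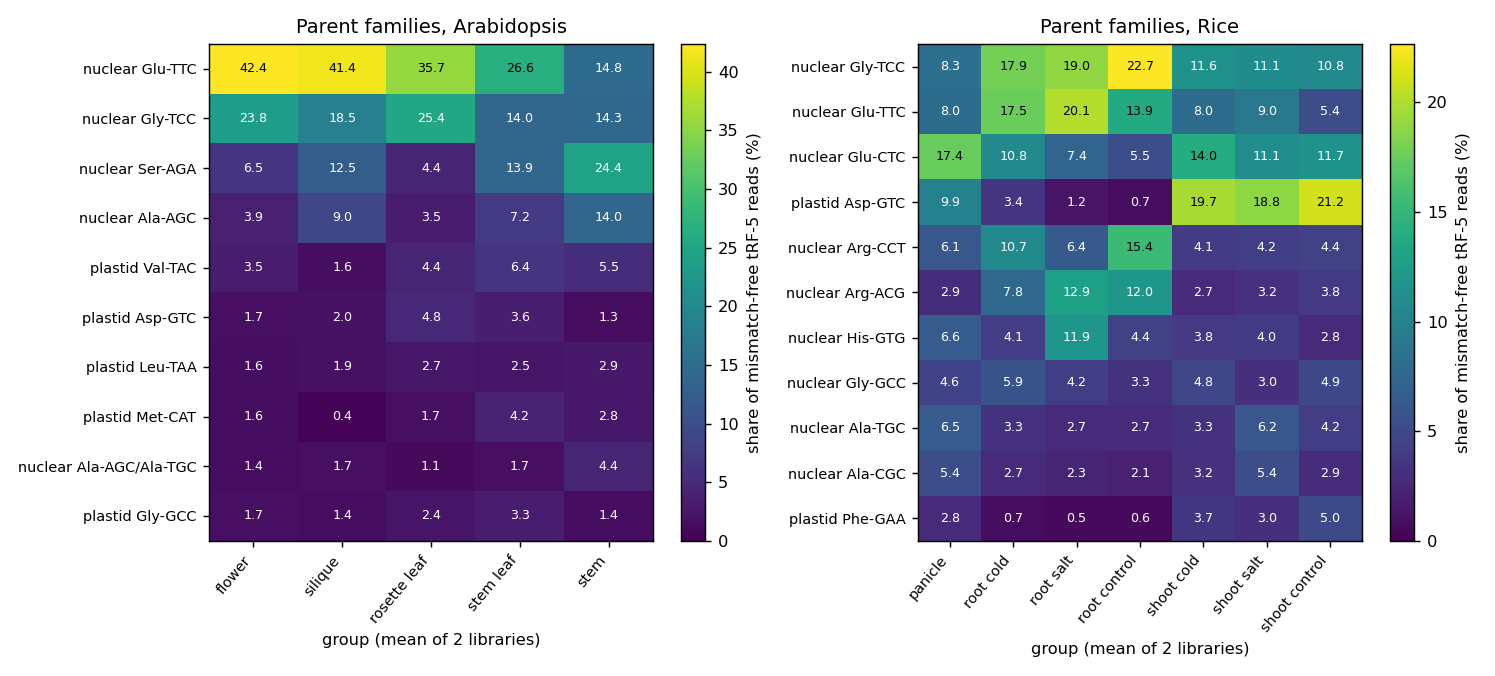
Share of mismatch-free tRF-5 reads (percent, colour and printed value, mean of 2 libraries) held by each parent family (rows) that reached 2% on average, by group (columns). In Arabidopsis the Glu-TTC share is 42.4% in flower and 14.8% in stem, and in rice the plastid Asp-GTC share is 0.728% in control root and 21.2% in control shoot.

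The Arabidopsis libraries show how the fragments differ between tissues. Stem lay at 1 end of a range, with most of its member reads ending early, in the D arm. In flower, silique and rosette leaf more of the reads ended in the anticodon arm. Stem leaf lay between, with 33.7% of reads ending in the D loop and 25.2% in the D stem. Fragments of 28 nt and more held 54.2% ± 0.252 in flower, 51.4% ± 0.623 in silique, 53.2% ± 0.031 in rosette leaf, 39.05% ± 0.544 in stem leaf and 22.4% ± 0.06 in stem of member reads (SD, n = 2 each). Fragments of 21 to 23 nt ran nearly the other way, with 8.74% in flower, 14.2% in silique, 7.49% in rosette leaf, 18.3% in stem leaf and 27.9% in stem. Cuts in the 3' side of the D stem held 35.6% in stem, against 14.8% in flower. Much of the stem share was 1 sequence, the 23 nt Ser-AGA fragment, at 117990 and 121250 RPM of 515849 and 530297 member RPM. In flower this fragment was at 24774 and 25513 of 436735 and 445723. It is also counted among the reads of 21 to 23 nt. Cuts in the anticodon loop held 17.3% in stem, against 40.4% in flower. The spread between the highest and lowest group mean was 31.8 percentage points for 28 nt and more, 20.8 for the D stem and 23.1 for the anticodon loop. Exact permutation tests over all ways of pairing the 10 libraries gave p = 0.00106, 0.00212 and 0.00317, of which the first is the smallest possible, and p = 0.00317, 0.00564 and 0.00693 after Benjamini-Hochberg adjustment over the shares tested.

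**Figure D3:**
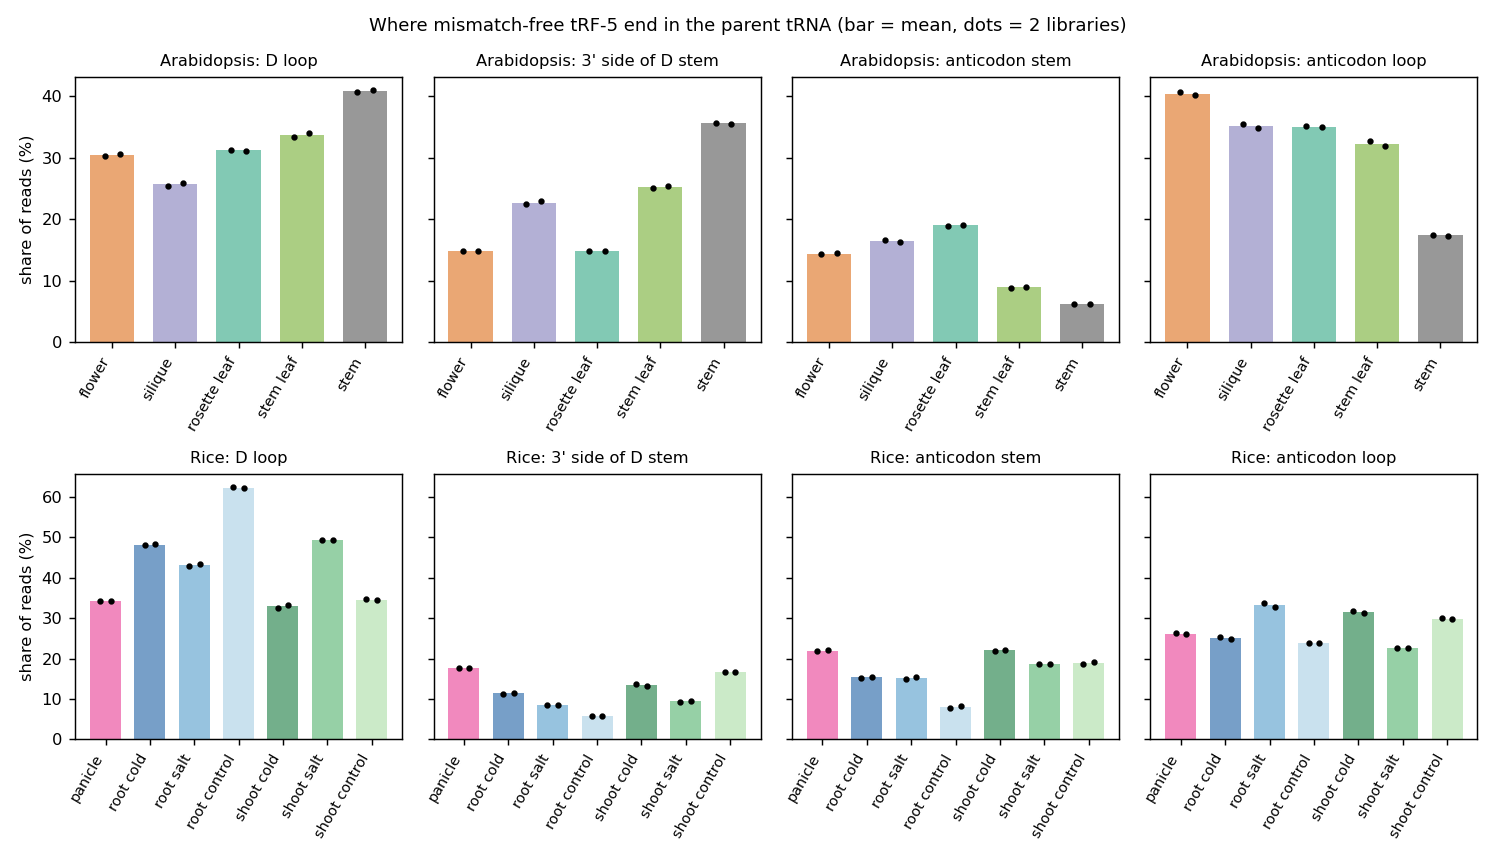
Share of mismatch-free tRF-5 reads (percent) that end in the D loop, the 3' side of the D stem, the anticodon stem and the anticodon loop, by group, for Arabidopsis and rice. Bars are means and dots the 2 libraries. D stem ends reach 35.6% in Arabidopsis stem, and D loop ends reach 62.4% in rice control root.

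Plastid fragments held 15.04% ± 0.0488 in flower, 10.9% ± 0.0015 in silique, 24.4% ± 0.207 in rosette leaf, 32.9% ± 0.162 in stem leaf and 23.9% ± 0.15 in stem of member reads (SD, n = 2 each). Their spread of 22.001 points passed the exact permutation test (adjusted p = 0.00317). In whole tissues, fewer cells of a type and less RNA per cell cannot be told apart. The spread of mitochondrial fragments, which held few reads, did not pass (exact permutation p = 0.0645).

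The most abundant fragment, 23 nt from Ser-AGA, was at 24774 and 25513 RPM in flower, 39122 and 40909 in silique, 14421 and 14509 in rosette leaf, 59235 and 61132 in stem leaf and 117990 and 121250 in stem. No pair overlapped another, and stem was highest and rosette leaf lowest. The 20 nt Ala-AGC fragment kept that order, at 9306 and 9310.3 RPM in flower, 21166 and 22087 in silique, 7419 and 7379 in rosette leaf, 26703 and 27562 in stem leaf and 57732 and 60427 in stem. The Ser-AGA fragment ends at base 23, in the D stem, and the Ala-AGC fragment 1 base behind the GG pair.

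The long Glu-TTC fragments differed in their order of tissues. The 33 nt fragment was at 70276 and 70410 RPM in flower, 41847 and 41068 in silique, 45925 and 46378 in rosette leaf, 41040 and 40366 in stem leaf and 22289 and 23388 in stem. Flower stood above all other tissues and stem below them, and silique, rosette leaf and stem leaf lay close together. The 31 nt fragment comes from another Glu-TTC tRNA and was at 8599.5 and 8779 RPM in flower, 13609 and 13572 in silique, 14208 and 14320 in rosette leaf, 2556 and 2420 in stem leaf and 2688 and 2665 in stem, so that silique and rosette leaf stood far above stem leaf and stem. The 18 nt Gly-TCC fragment was at 39646 and 40320 RPM in flower, 13811 and 14053 in silique, 52686 and 52338 in rosette leaf, 22583 and 23484 in stem leaf and 34341 and 34224 in stem, highest in rosette leaf and lowest in silique. All 8 of the most abundant fragments differed among tissues (limma F-test, Benjamini-Hochberg adjusted p of 2.74e-08 or lower).

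**Figure D4:**
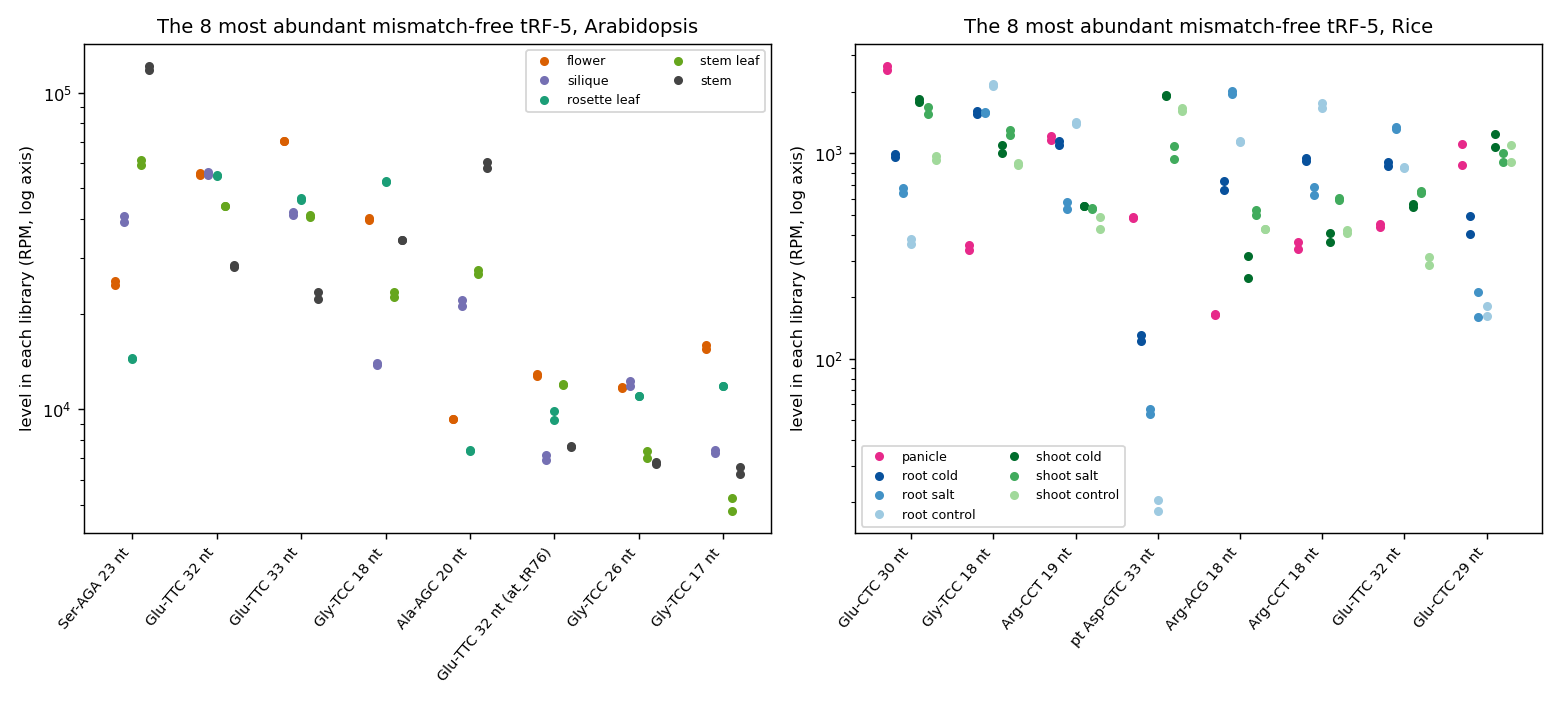
Level (RPM, log axis) in each library of the 8 most abundant mismatch-free tRF-5 of Arabidopsis and of rice, coloured by group. The Ser-AGA 23 nt dots are highest in stem and lowest in rosette leaf, and the plastid Asp-GTC 33 nt dots are lowest in control root, at 20.6 and 18.2 RPM.

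Over all members, 434 of 785 fragments, or 55.3%, differed among the 5 tissues (limma on log2(RPM + 1) over all 5826 listed fragments, Benjamini-Hochberg adjusted p under 0.05). Of all listed fragments 33.3% did so, and of the 1098 tRF-5 with a mismatch, which are far rarer in reads, 149. By origin, 213 of 300 plastid, 221 of 481 nuclear and 0 of 4 mitochondrial fragments passed. Families in which every fragment passed included Gly-TCC (17 of 17), plastid Gly-GCC (17 of 17) and plastid Val-GAC (16 of 16), picked here for that reason.

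The widest ranges among called fragments of at least 10 RPM lay mostly in plastid fragments that were at 0 in both silique libraries. The 33 nt Leu-CAA fragment was at 115 and 61.2 RPM in flower, 0 and 0 in silique, 476 and 474 in rosette leaf, 269 and 230.4 in stem leaf and 61.6 and 66.3 in stem. With 3 reads over both silique libraries as the floor, which is 4.36 RPM, it was at least 109-fold higher in rosette leaf than in silique. On the same floor, the 31 nt Val-GAC fragment was at least 70.2-fold higher in rosette leaf, and the 33 nt Met-CAT fragment at least 54.6-fold higher in stem leaf, than in silique. The 18 nt, 25 nt and 35 nt fragments of the same Leu-CAA tRNA were also at 0 in both silique libraries, at least 53.4-fold, 56.9-fold and 61.9-fold below their highest tissue. Silique is also the shallowest tissue. A nuclear fragment was near 0 in rosette leaf instead: Val-AAC 24 nt was at 101 and 87.2 RPM in flower, 415 and 431 in silique, 0 and 2.15 in rosette leaf, 186 and 238 in stem leaf and 362 and 341 in stem (limma F-test adjusted p = 2.92e-06).

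Flower and silique were set against rosette leaf, stem leaf and stem to compare reproductive with vegetative tissue. Of the 785 fragments, 291 differed, 85 higher and 206 lower in the reproductive tissues, against 18.8% of all listed fragments called (9.9% higher, 8.87% lower). The median log2 fold was -0.29 over the members and -0.01 over all. Plastid fragments were 6 higher and 167 lower of 300, and nuclear fragments 79 higher and 39 lower of 481. The lower plastid families included Val-TAC (15 of 17), Val-GAC (15 of 16), Met-CAT (19 of 25) and Leu-CAA (13 of 20), none of them with a fragment higher. Among nuclear families, Glu-TTC was 20 higher and 3 lower of 42, and Glu-CTC 17 higher and 1 lower of 46. His-GTG was 11 higher and 0 lower of 33, and Ser-AGA 0 higher and 9 lower of 20. The comparison averages tissues that differ. The 23 nt Ser-AGA fragment averaged 25143 RPM in flower and 40015 in silique. These levels lay above rosette leaf (14465) and below stem leaf (60184) and stem (119620).

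The 24 nt Glu-CTC fragment was at 41.4 and 60.5 RPM in flower, 105 and 73.8 in silique, 13.7 and 4.29 in rosette leaf, 4.49 and 2.86 in stem leaf and 0 and 9.82 in stem (log2 fold 3.72 ± 0.68 (SE), limma adjusted p = 0.00363). Fragments were named for this comparison only where the reproductive and vegetative libraries did not overlap, so the lack of overlap is no separate result. The 18 nt fragment of the same tRNA was at 20.7 and 32.5 RPM in flower, 37.4 and 16.7 in silique, 0 and 0 in rosette leaf, 0 and 2.86 in stem leaf and 0 and 4.91 in stem (3.98 ± 0.74, limma adjusted p = 0.00405). The 23 nt fragments of this tRNA (3.19 ± 0.67, limma adjusted p = 0.0081) and of His-GTG (2.86 ± 0.67, limma adjusted p = 0.0137) also passed. The first lost the call without either flower library (adjusted p = 0.0525 and 0.0509), and the second without flower replicate 1, flower replicate 2 or silique replicate 1 (0.0882, 0.077 and 0.0518). The largest falls were plastid. Val-GAC 32 nt averaged 0.325 RPM in the reproductive tissues, against 52.2 RPM in the vegetative ones (-5.21 ± 0.51, limma adjusted p = 4.04e-05). That average rests on 0 and 1.30 RPM in flower and 0 and 0 in silique, where 1 read was worth 3.74 and 2.38 RPM. Leu-CAA 18 nt averaged 13.9 RPM, against 176 RPM (-5.01 ± 0.28, limma adjusted p = 4.78e-07). For fragments near 0, folds on the log2(RPM + 1) scale are smaller than folds of RPM, and 0 reads do not show absence.

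The median of all listed fragments moved between Arabidopsis libraries, from 0.47 above the common level in flower to 0.37 below it in silique on the log2 scale, and between rice libraries from 0.58 above in panicle to 0.32 below in control root. Where recentring the libraries on that median turns the balance of a comparison's calls or moves its share of higher calls by over 10 percentage points, both splits are given.

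In rice, control root was first compared with control shoot. Plastid fragments were scarce in root, and more of its reads ended in the D loop. Plastid fragments held 3.10% of member reads in control root, against 40.1% in control shoot. Over all treatments they held 4.40% in root, against 35.9% in shoot. The difference was -31.5 points pooled, -28.2 within cold, -29.3 within salt and -37 within control (exact permutation of organ labels within treatments, two-sided p = 0.00926, the smallest possible, adjusted p = 0.0123).

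Fragments of 18 to 20 nt held 44.5% of member reads in root, against 27.4% in shoot. This difference of 17.1 points (exact permutation adjusted p = 0.0123) was 18.1 within cold, 2.21 within salt and 30.9 within control. Without the 128 fragments that fit tRNAs of different assigned origins it was 12.1 points and did not pass (exact permutation adjusted p = 0.0635). D stem ends differed by -4.59 points pooled (exact permutation adjusted p = 0.0123), with -1.93 within cold, -0.91 within salt and -10.9 within control. Anticodon stem ends differed by -6.97 points (exact permutation adjusted p = 0.0123), with -6.76, -3.41 and -10.7 in the same order. For D loop ends the pooled difference of 12.3 points did not pass (exact permutation adjusted p = 0.0635), and its sign depended on the treatment: 15.3 within cold, -6.25 within salt and 27.7 within control. Fragments that end on the D-loop GG pair held 36.7% of reads in control root, against 13.4% in control shoot.

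Of 528 fragments, 296 differed between control root and control shoot, 91 higher and 205 lower in root, against 49.5% of all listed fragments called (21.9% higher, 27.5% lower). The median log2 fold was -0.58 over the members and -0.22 over all. Plastid fragments were 3 higher and 125 lower of 148, nuclear ones 81 higher and 78 lower of 355 (95 and 78 after centring) and mitochondrial ones 7 higher and 2 lower of 25. All 17 plastid Asp-GTC (17 of 17 lower) and all 8 plastid Phe-GAA fragments (8 of 8 lower) fell in root. Asn-GTT was 7 higher and 0 lower of 12, and Arg-ACG 6 higher and 1 lower of 12. D stem ends were 3 higher and 59 lower of 103.

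The 33 nt plastid Asp-GTC fragment was at 20.6 and 18.2 RPM in control root, against 1666 and 1602 in control shoot (-6.33 ± 0.09, limma adjusted p = 1.54e-20). The 27 nt plastid Val-GAC fragment was at 0 and 1.28 RPM in control root, against 97.9 and 106 in control shoot (-6.09 ± 0.46, limma adjusted p = 3.05e-09). Fragments were named for this comparison only where the groups did not overlap, and the Val-GAC fragment had few reads in root. On the higher side stood the 19 nt Asn-GTT fragment, at 228 and 249.9 RPM in control root, against 33.5 and 31.8 in control shoot (2.83 ± 0.19, limma adjusted p = 4.73e-10). The 19 nt Arg-TCG fragment was at 294 and 303 RPM in control root, against 50.3 and 43.8 in control shoot (2.64 ± 0.18, limma adjusted p = 5.48e-10). Among the most abundant, the 18 nt Gly-TCC fragment was at 2186 and 2130.5 RPM in control root, against 878 and 898 in control shoot (1.28 ± 0.05, limma adjusted p = 7.27e-14). The 18 nt Arg-CCT fragment was at 1665 and 1767 RPM in control root, against 423 and 408 in control shoot (2.04 ± 0.06, limma adjusted p = 6.20e-15). Of these, the Gly-TCC, Arg-CCT and Asn-GTT fragments end on the GG pair.

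Panicle was compared with the mean of control root and control shoot. Here 260 of 528 fragments differed, 222 higher and 38 lower in panicle, against 45.3% of all listed fragments called (36.2% higher, 9.06% lower), with a median log2 fold of 0.65 over the members and 0.62 over all. The listed fragments as a whole lay higher in panicle, so the split rests on the scaling: after median centring 188 were called, 103 higher and 85 lower. Fragments of 21 to 23 nt were 33 higher and 0 lower of 56 (18 and 0 after centring), and D stem ends 55 higher and 0 lower of 103 (26 and 1 after centring). Fragments of 18 to 20 nt were 41 higher and 22 lower of 135, a direction that centring turned, to 15 higher and 42 lower.

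The 30 nt Glu-CTC fragment, cut in the anticodon stem, was at 2660.3 and 2549 RPM in panicle, against 363 and 384 in control root and 933 and 975 in control shoot (2.12 ± 0.04, limma adjusted p = 6.87e-18). The 18 nt Gly-TCC fragment was at 338 and 357 RPM in panicle, below every root and shoot library (-1.99 ± 0.04, limma adjusted p = 1.22e-17). The 21 nt Arg-TCG fragment was at 207 and 239.6 RPM in panicle, against 4.12 and 2.56 in control root and 36.7 and 18.3 in control shoot (4.38 ± 0.29, limma adjusted p = 8.19e-10). Within Arg-CCT the 20 nt fragment was at 229 and 236 RPM in panicle, against 11.3 and 12.6 in control root and 72.1 and 76.1 in control shoot (2.90 ± 0.16, limma adjusted p = 8.22e-11), while the 18 nt fragment was at 342 and 369 RPM in panicle (-1.25 ± 0.06, limma adjusted p = 2.06e-12).

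The stress comparisons set 8 h of cold or salt against control in each organ. Cold was given in continuous light, while rice was grown with 14 h of light, and an effect of light was not tested apart from cold. D loop ends held 48.2% of member reads under cold and 43.1% under salt in root, against 62.4% in control root. In shoot they held 32.9% under cold and 49.4% under salt, against 34.6% in control shoot. With 2 libraries against 2 no permutation p can reach 0.05, so these shares carry no test. Fragments of 28 nt and more held 40.2% under cold and 48.3% under salt in root, against 31.8% in control root. In shoot they held 53.1% under cold and 40.8% under salt, against 47.6% in control shoot.

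Salt in shoot changed more members than any other stress comparison. There 190 of 528 fragments differed from control, 150 higher and 40 lower under salt, against 31.2% of all listed fragments called (17.4% higher, 13.8% lower), with a median log2 fold of 0.39 over the members and 0.01 over all. After median centring 167 were called, 100 higher and 67 lower, and a fit to the 4 libraries alone called 105. Fragments of 18 to 20 nt were 59 higher and 3 lower of 135 (46 and 7 after centring) and those of 28 nt and more 65 higher and 13 lower of 229 (43 and 28 after centring). By cut region, D loop ends were 74 higher and 4 lower of 183 (54 and 8 after centring), while D stem ends were 10 higher and 18 lower of 103 (2 and 26 after centring). With none lower, 7 of 12 Asn-GTT, 8 of 17 Ala-CGC and 12 of 36 Glu-CTC fragments were higher.

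Several plastid tRNAs gave more of a short and less of a longer fragment in salt-treated shoot. The 21 nt Asp-GTC fragment was at 2349 and 2273 RPM under salt, against 591 and 590.0 in control shoot (1.97 ± 0.14, limma adjusted p = 3.98e-09), and the 33 nt fragment of the same tRNAs at 938 and 1089.9 RPM, against 1666 and 1602 (-0.69 ± 0.09, limma adjusted p = 7.92e-06). Of all Asp-GTC reads the 21 nt fragments held 33.5% ± 2.21 under salt, against 11.2% ± 0.123 in control shoot, and the 33 nt fragments 14.7% ± 0.926, against 31.0002% ± 0.467 (SD, n = 2 each). The whole family held 18.8% of member reads under salt, against 21.2% in control shoot.

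Plastid Gly-GCC had the same pattern. Its 18 nt fragment, which ends on the GG pair, was at 547 and 571 RPM under salt, against 119.7 and 112 in control shoot (2.26 ± 0.22, limma adjusted p = 3.73e-07), and its 24 nt fragment, which ends in the D stem, at 63.7 and 60.9 RPM, against 301 and 293 (-2.24 ± 0.19, limma adjusted p = 7.56e-08). Of plastid Val-GAC, the 18 nt fragment was at 128 and 126 RPM under salt, against 22.7 and 41.2 in control shoot (2.02 ± 0.43, limma adjusted p = 0.00149), and the 27 nt fragment at 20.1 and 12.4 RPM, against 97.9 and 106 (-2.61 ± 0.46, limma adjusted p = 0.000314). These pairs were set side by side after their values were seen.

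A nuclear example is the 19 nt Ala-CGC fragment, at 369 and 387 RPM in shoot under salt, against 63.01 and 63.5 in control shoot (2.56 ± 0.12, limma adjusted p = 1.57e-11). In root it was at 65.8 and 70.3 RPM under salt, against 113 and 106 in control root (-0.68 ± 0.12, limma adjusted p = 0.000703), so the organs moved in opposite directions. Among falls, nuclear Asp-GTC 23 nt was at 5.58 and 8.99 RPM under salt, against 40.8 and 40.3 in control shoot (-2.36 ± 0.32, limma adjusted p = 1.89e-05).

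In root, salt changed 98 fragments, 51 higher and 47 lower, against 10.6% of all listed fragments called (4.94% higher, 5.65% lower), with a median log2 fold of 0.05 over the members and 0.00 over all. After median centring the split was 49 higher and 53 lower, and without root salt replicate 1 the count was 64. Here fragments of 18 to 20 nt were 3 higher and 26 lower of 135 and D loop ends 11 higher and 29 lower of 183, whereas fragments of 21 to 23 nt were 10 higher and 0 lower of 56. His-GTG was 7 higher and 0 lower of 18, and Asn-GTT 0 higher and 6 lower of 12.

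The 33 nt His-GTG fragment was at 1062 and 999.9 RPM in root under salt, against 242 and 209 in control root (2.19 ± 0.11, limma adjusted p = 3.33e-11). Fragments of that length held 43.4% ± 0.995 of His-GTG reads under salt, against 28.3% ± 3.33 in control root (SD, n = 2 each). The 21 nt Ala-CGC fragment was at 46.1 and 57.5 RPM under salt, against 9.95 and 9.19 in control root (2.31 ± 0.19, limma adjusted p = 4.58e-08), opposite to the 19 nt fragment of the same tRNA. The 19 nt Gly-TCC fragment was at 140.0 and 146 RPM under salt, against 585 and 558 in control root (-1.99 ± 0.10, limma adjusted p = 4.99e-11).

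Not every short fragment fell in salt-treated root. The 18 nt Arg-ACG fragment was at 1941 and 2005 RPM under salt, against 1143 and 1145 in control root (0.79 ± 0.08, limma adjusted p = 1.30e-06). Under cold it was at 662 and 737 RPM (-0.71 ± 0.08, limma adjusted p = 6.64e-06). The 18 nt Arg-CCT fragment, cut at the same GG pair, was at 630.3 and 684 RPM under salt, against 1665 and 1767 in control root (-1.38 ± 0.06, limma adjusted p = 1.82e-11). Under cold it was at 919 and 952 RPM (-0.87 ± 0.06, limma adjusted p = 1.25e-08). The cold and salt comparisons share the control libraries of their organ.

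Cold in root changed 100 fragments, 77 higher and 23 lower, against 9.38% of all listed fragments called (5.87% higher, 3.51% lower), with a median log2 fold of 0.26 over the members and 0.08 over all; without root cold replicate 1 the count was 65. Plastid fragments were 36 higher and 0 lower of 148 and nuclear ones 41 higher and 23 lower of 355. D stem ends were 21 higher and 0 lower of 103, anticodon stem ends 23 higher and 0 lower of 114, and D loop ends 23 higher and 17 lower of 183. Plastid Asp-GTC was 11 higher and 0 lower of 17.

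The 21 nt plastid Asp-GTC fragment was at 176 and 167 RPM in root under cold, against 17.5 and 25.4 in control root (2.97 ± 0.14, limma adjusted p = 1.38e-11), and the 33 nt fragment at 122 and 130.4 RPM, against 20.6 and 18.2 (2.64 ± 0.09, limma adjusted p = 2.12e-13). The 18 nt plastid Val-GAC fragment was at 12.2 and 18.1 RPM under cold, against 1.37 and 0.427 in control root (3.11 ± 0.43, limma adjusted p = 5.81e-05). All of these stayed under their levels in cold-treated shoot, where the 33 nt Asp-GTC fragment was at 1913 and 1925 RPM. The largest falls were short and nuclear. Asn-GTT 19 nt was at 95.4 and 109 RPM under cold, against 228 and 249.9 in control root (-1.22 ± 0.19, limma adjusted p = 0.000196), and Gly-TCC 19 nt at 251 and 255 RPM, against 585 and 558 (-1.17 ± 0.10, limma adjusted p = 1.66e-07).

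Cold in shoot changed the fewest, 66 of 528, 51 higher and 15 lower, against 15.1% of all listed fragments called (9.99% higher, 5.12% lower), so the members' share of 12.5% was not above the background. The median log2 fold was 0.16 over the members and 0.09 over all, and median centring gave 30 higher and 29 lower of 59. Glu-TTC was 11 higher and 0 lower of 38. The 28 nt Gly-GCC fragment was at 83.8 and 75.6 RPM under cold, against 30.4 and 30.3 in control shoot (1.36 ± 0.18, limma adjusted p = 4.44e-05), and the 32 nt Glu-TTC fragment at 549 and 566 RPM, against 287 and 311 (0.90 ± 0.05, limma adjusted p = 1.10e-09). On the lower side, Ser-AGA 23 nt was at 29.5 and 27.8 RPM under cold, against 97.5 and 111 in control shoot (-1.82 ± 0.33, limma adjusted p = 0.00083), and Val-AAC 24 nt at 32.9 and 34.8 RPM, against 109 and 94.1 (-1.56 ± 0.23, limma adjusted p = 0.000166). Both of these end at base 23, in the D stem.

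**Figure D5:**
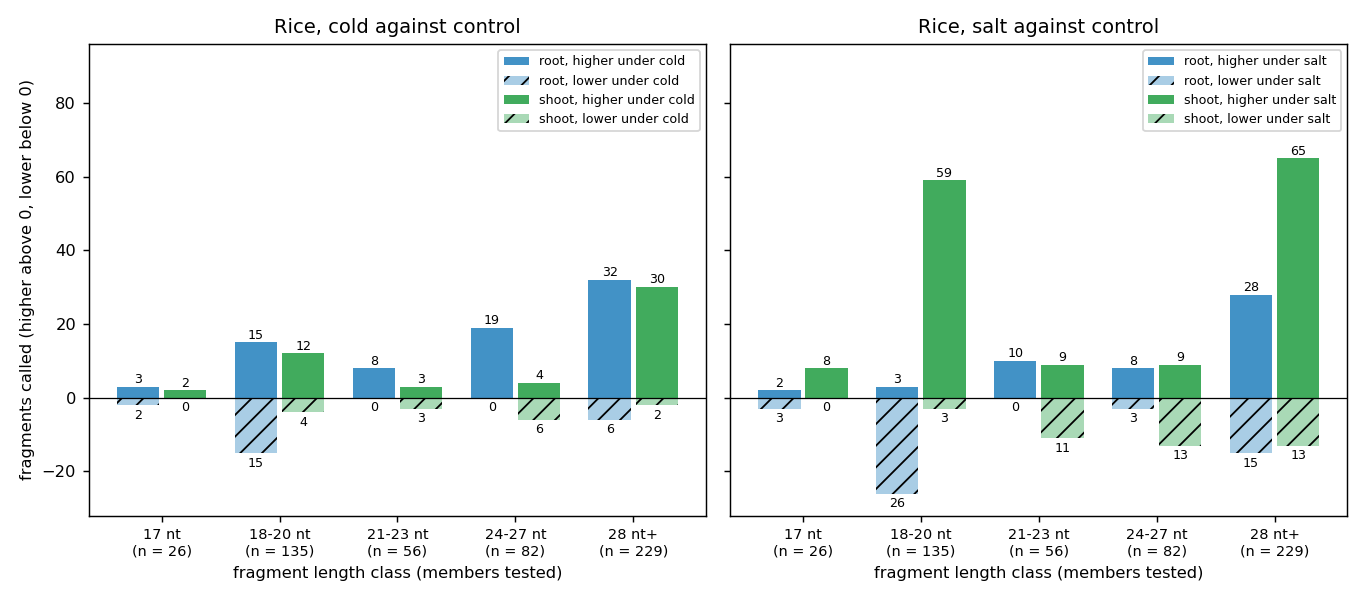
Number of mismatch-free tRF-5 called higher (above 0) or lower (below 0) than control under cold and salt in root and shoot, by length class. Among fragments of 18 to 20 nt, salt gives 3 higher and 26 lower in root, and 59 higher and 3 lower in shoot.

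The difference between the organs was tested directly, as the change in root minus the change in shoot. For salt, 132 fragments passed, 44 higher and 88 lower, against 16.7% of all listed fragments called (7.09% higher, 9.63% lower). After median centring the split was 67 higher and 64 lower of 131. Fragments of 18 to 20 nt were 1 higher and 46 lower of 135 (3 and 39 after centring), and D stem ends 21 higher and 3 lower of 103. Asn-GTT was 0 higher and 8 lower of 12. Its 20 nt fragment was at 8.63 and 13.1 RPM in root under salt, against 42.9 and 41.2 in control root. In shoot it was at 64.8 and 60.2 RPM under salt, against 16.3 and 22.3 in control shoot, and the difference of the changes was -3.54 ± 0.34 on the log2 scale (limma adjusted p = 5.88e-07). For the 19 nt Ala-CGC fragment it was -3.24 ± 0.17 (limma adjusted p = 2.10e-10).

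For cold, 87 fragments passed, 50 higher and 37 lower, against 9.56% of all listed fragments called (4.29% higher, 5.26% lower), with 61 higher and 21 lower when libraries were given equal totals. Plastid fragments were 28 higher and 0 lower of 148. The 21 nt plastid Asp-GTC fragment differed by 3.32 ± 0.19 (limma adjusted p = 2.56e-09): in shoot it was at 470.2 and 455 RPM under cold, against 591 and 590.0 in control shoot, a difference that did not pass on its own (limma adjusted p = 0.0925).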

How the data were processed

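Total RNA was extracted with TRIzol, treated with a tRF pretreatment kit that removes end and base modifications, and made into small RNA libraries, per the labels' protocols. Adapters were trimmed with cutadapt and TAIR10 was named as a build, per the submitters' processing notes (the sources used here do not name the rice build, the aligner, read length limits or the treatment of shared reads). The authors deposited log2(1 + RPM) values per fragment, per the file headers, and the tRNA table is on the same log2 scale. Dividing RPM by the value of 1 read gave whole reads for 100.0% of values, within a tolerance of 0.05. Listed fragments held 159832 to 1293518 reads in each Arabidopsis library (1 read being worth 0.651 to 3.85 RPM) and 67985 to 434778 in each library of rice (0.12 to 1.12 RPM). Floors of 3 reads cover counting error only.

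Members were matched as exact substrings. Origin was plastid where any matching tRNA has a plastid locus, otherwise mitochondrial, otherwise nuclear. Differences were tested with limma 3.58.1 (R 4.3.3) on log2(RPM + 1) over all listed fragments of a species with all its groups in the fit, with Benjamini-Hochberg adjustment, and a call is an adjusted p under 0.05. Shares of member reads were tested by exact permutation of libraries with numpy 2.4.6. The libraries of a pair were compared with sampling noise by a chi-squared test with scipy 1.17.1. The code was tested on simulated data.

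Named fragments are the 8 most abundant of a species, the most abundant of each origin, length class and cut region, and, per comparison, the 4 largest folds in each direction among called members of at least 10 RPM whose groups do not overlap. For differences among tissues the 8 widest ranges are taken, and for differences between organs in a stress effect the 2 largest in each direction. Families of at least 2% of member reads are plotted. Members and lists were chosen with earlier results of these data known.

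Deviations of same-numbered libraries from their group means were correlated, for fragments of at least 10 RPM. The range was 0.14 to 0.32 over 10 pairs of Arabidopsis groups and 0.20 to 0.44 over 21 pairs of rice groups. At 100 RPM and more it was -0.08 to 0.13 (median -0.01) and -0.07 to 0.33 (median 0.07). The labels state no pairing, and replicate 2 held more reads in every group. The main fits held no replicate term, and a replicate block was fitted only as an alternative. Alternatives changed the offset, the filter, the scaling, the block, the libraries in the fit and the members.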

Additional observations from a re-analysis of the deposited data

Results flagged for a closer look

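The following results are given because a stress moved the fragments differently in root and shoot. All are changes against control in root minus those in shoot. By limma's interaction test, 87 fragments differed under cold and 132 under salt. On the log2 scale with SE, plastid Asp-GTC 21 nt differed by 3.32 ± 0.19 under cold and plastid Val-GAC 18 nt by 2.87 ± 0.60, and Glu-TTC 21 nt by -2.43 ± 0.62 and Pro-CGG 33 nt by -1.54 ± 0.23. The Glu-TTC 21 nt call under cold was lost without any of 6 single libraries (limma adjusted p of 0.0522 to 0.0806). Under salt, plastid Val-GAC 27 nt differed by 3.36 ± 0.65, plastid Leu-CAA 23 nt by 2.49 ± 0.55, Glu-TTC 21 nt by -3.55 ± 0.62 and Asn-GTT 20 nt by -3.54 ± 0.34.

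In the shares of member reads the libraries of root moved one way and those of shoot the other, and these differences were not tested. Under salt, D loop ends differed by -33.99 percentage points (-19.22 in root and 14.77 in shoot), fragments of 18 to 20 nt by -28.64, fragments of 28 nt and more by 23.28, anticodon loop ends by 16.68, D stem ends by 10.02, fragments of 24 to 27 nt by 8.79 and of 17 nt by -2.03. Under cold, D stem ends differed by 9.01 points, plastid fragments by 8.83, nuclear fragments by -8.7, fragments of 24 to 27 nt by 8.07, of 21 to 23 nt by 3.4 and of 17 nt by -1.67.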

How the results depend on the processing

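Leaving out 1 library at a time gave 321 to 440 calls among tissues, 206 to 296 for reproductive against vegetative tissue, 255 to 332 for root against shoot, 182 to 281 for panicle, 44 to 90 and 65 to 127 for cold in shoot and root, 136 to 203 and 64 to 116 for salt in shoot and root, and 61 to 106 and 101 to 155 for the organ difference under cold and salt. The replicate block gave 446, 295, 302, 264, 72, 107, 192, 104, 91 and 136 calls, in the order of tissues, reproductive tissue, root, panicle, cold in shoot and root, salt in shoot and root, and the organ differences. It changed no call among the fragments named per comparison. Root against shoot gave 179 at a mean of at least 10 RPM, where fewer fragments were tested, and salt in shoot 105 when only its 4 libraries were fitted, where the cause was not tested. Counting distinct sequences in place of reads, none of the following shares passed, and the last of them turned its sign: in Arabidopsis the spreads were 0.742 points at 17 nt, 1.497 at 18 to 20, 1.857 at 21 to 23, 1.11 at 24 to 27, 1.839 for D stem and 2.291 for anticodon stem ends; in rice root minus shoot gave 0.148, -0.0508 and -0.500 for 18 to 20, 21 to 23 and 24 to 27 nt, -0.467 for D stem and 0.285 for anticodon stem ends. Without the 128 rice fragments that fit tRNAs of different assigned origins, root minus shoot turned to 2.08 points at 17 nt and passed (exact permutation adjusted p = 0.0123), against -0.991 with them, which did not pass. For mitochondrial fragments it turned to -0.0364 and did not pass, against 0.174 with them, which did, and at 18 to 20 nt it was 12.1 and did not pass. The plastid fragments kept there still have nuclear copies. With organ labels permuted across treatments in place of within them, it passed for 17 nt (-0.991) and D loop ends (12.3), and did not for mitochondrial fragments (0.174). Among the fragments named per comparison no direction reversed, 8 calls were lost under settings other than leaving out a library, and 30 when a library was left out. Calls of the other members were followed only as the counts above. The planned count test on recovered reads was not run, since the deposited unit is log2. The planned restriction to fragments that match the tRNA of their own row was not run either, since the rows name no tRNA. Dropping the filter or requiring a start at base 1 changed no member or count. At 0 reads, silique and the shallowest rice libraries limit what can be seen to about the 3-read floor.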
